A study of Mus musculus with 6 samples.

Results

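The imprinted Dlk1-Meg3-Dio3 domain of mouse chromosome 12 was examined for CpG methylation in neonatal neocortex. Its CpGs were those in 2 mm39 intervals, chr12:109410000-109720000 and chr12:110235000-110255000 (Dio3), that were read at least 10 times in at least 2 samples of each genotype. Of 483 CpGs listed there in any library, 242 met this rule. They fell into 84 fixed windows of 500 bp, of 276001 such windows on the autosomes. Reduced representation bisulfite sequencing (RRBS) reads CpGs near CCGG sites, where the enzyme MspI cuts, and bisulfite makes an unmethylated cytosine read as thymine, so the methylation level is the percent of reads that kept cytosine. The samples were neocortex of mice at postnatal day 5: 3 labelled WT (wild type) and 3 labelled Chd8+/-, heterozygous for the chromatin remodeller Chd8. The labels give neither the allele nor the sex, and do not tie the samples to separate animals. The p-values therefore reflect only how far these samples vary, which may be technical in part.

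Imprinted genes are expressed from the copy inherited from a given parent. In this domain the paternal copy expresses Dlk1, a Notch-like ligand of progenitor cells, Rtl1, a gene derived from a retrotransposon, and Dio3, the deiodinase that inactivates thyroid hormone. The maternal copy expresses Meg3, a long noncoding RNA, and further noncoding RNAs and many microRNAs downstream of it. An intergenic control region between Dlk1 and Meg3 acquires methylation on the paternal copy in the germ line, and the Meg3 promoter region gains paternal methylation after fertilisation. Where the copies differ in this way, DNA from both together reads near 50%. In mouse neural stem cells Dlk1 is known to be expressed from both copies. The reads were not assigned to a parental copy, so a level near 50% cannot be told apart from partial methylation of both.

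The gene tables at hand follow another build than the methylation files, so exons, introns and UTRs were not used here. The promoters of Meg3 and Dio3 were instead placed by the spacing of their CpGs. The RefSeq promoter sequences (build GRCm38.p6) were slid along the CpG positions of the files, and a place counted when every listed CpG in the 300 bases fell on a CpG of the sequence. Dio3 had a single such place with 20 listed CpGs, against 3 at the next best place in the domain. Meg3 had 1 with 5 listed CpGs, against 2 at the next best, and no other place on chromosome 12 matched as many in either case. The promoters of Dlk1 and Mirg could not be placed, and that of Rian holds no CpG.

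The 250 bases before each start site are shown because these were the promoters that could be placed, one with low but measurable methylation (Meg3, chr12:109506629-109506878, plus strand) and an unmethylated one (Dio3, chr12:110245414-110245663, plus strand). Capitals mark the CpGs that entered the analysis, 5 of 10 for Meg3 and 13 of 21 for Dio3.
Meg3: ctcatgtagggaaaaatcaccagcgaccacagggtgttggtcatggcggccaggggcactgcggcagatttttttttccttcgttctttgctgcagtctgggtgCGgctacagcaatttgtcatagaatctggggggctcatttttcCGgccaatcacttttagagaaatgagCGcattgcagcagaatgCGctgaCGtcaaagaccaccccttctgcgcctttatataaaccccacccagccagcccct
Dio3: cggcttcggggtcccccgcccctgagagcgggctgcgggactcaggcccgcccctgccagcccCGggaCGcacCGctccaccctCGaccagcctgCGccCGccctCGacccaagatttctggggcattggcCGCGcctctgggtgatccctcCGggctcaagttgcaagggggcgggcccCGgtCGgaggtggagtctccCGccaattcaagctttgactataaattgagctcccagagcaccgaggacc

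In the 300-base promoters CCGG, which reads the same on both strands, occurs 3 times for Dio3, 1 time for Meg3 and 0 times for Dlk1, and 52.8% of the 32851 promoters in the table hold it. The last CpG in capitals in the Meg3 promoter lies in TGACGTCA, the letters of a cAMP response element (also the same on both strands), which 1.79% of the promoters hold.

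The Chd8+/- libraries were the shallower ones over the whole genome, with 32285980 to 39820333 summed reads over CpG cytosines against 45498222 to 54818138 in WT. In the domain, 213 to 228 of the 242 CpGs were read per library, at a median of 23 to 36 reads. Replicate 3 of both genotypes stood apart on chromosome X, which took 2.58% and 2.56% of their coverage against 1.18% to 1.21% in the other libraries. Chd8+/- replicate 3 also had the highest mean level over all autosomal CpGs kept by the same rule, 47.7%, with the other libraries at 44.8% to 46.2%. Results below are given with and without it where it bears on them.

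Methylation of the domain ran from nearly none to nearly complete, in blocks. Of the 84 windows, 13 averaged under 10% over the 6 samples, 11 stood at 10% to 35%, 11 near 50% (set here as 35% to 65%) and 49 above 65%. The 11 windows near 50% made up 13.1% of the domain, beside 12.8% of all autosomal windows, so their share was close to that of the genome as a whole. Among windows with at least 3 CpGs, 3 of 40 (7.5%) were near 50%, beside 10.2% of such autosomal windows. Among single CpGs, 25 of 242 (10.3%) were near 50%, beside 8.94% of autosomal CpGs. Most windows with low or intermediate levels lay in the control region, around Meg3, at and before the Dio3 promoter, at both ends of the main interval and in a group downstream of Meg3, as the map of the windows shows. The others were at 109474501, 109553001 and 110235501.

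**Figure D1:**
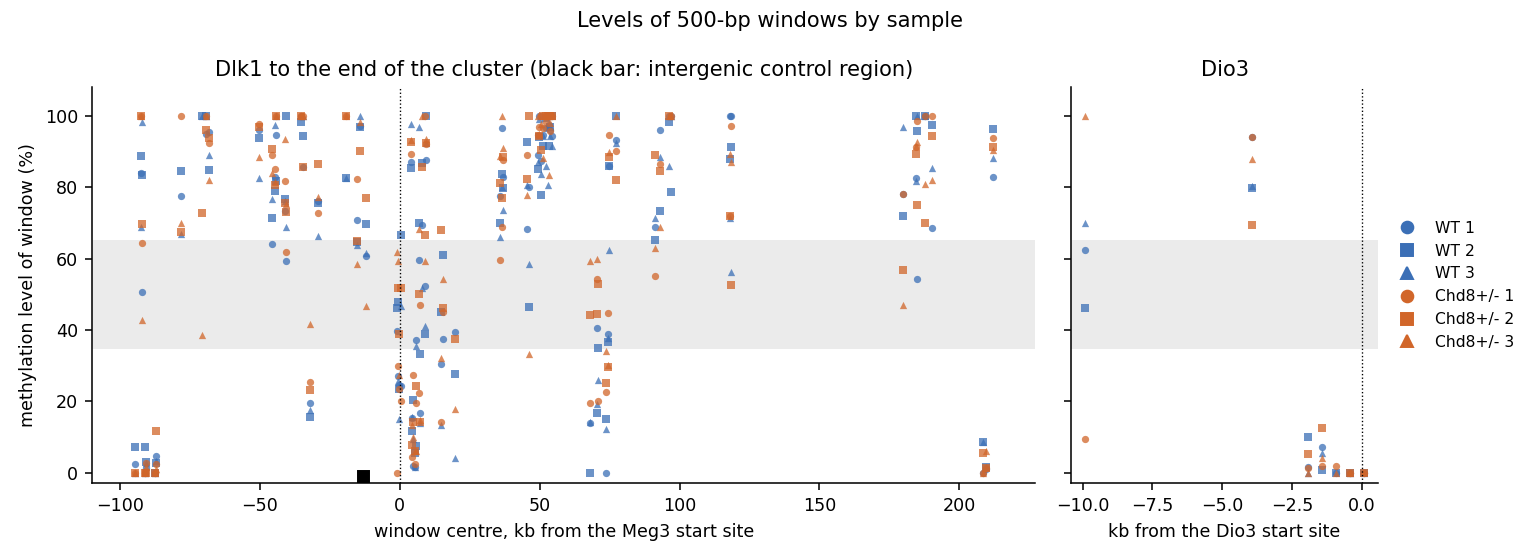
Methylation level (%) of each 500-bp window in each of the 6 samples against the distance of its centre from the Meg3 start site (left, kb) and from the Dio3 start site (right, kb); blue is WT, orange Chd8+/-, the symbols are replicates, and the grey band is 35% to 65%. Of 84 windows 49 averaged above the band, and those next to the Dio3 start site sat near 0 in all samples.

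The intergenic control region was thinly read. Of 8 CpGs listed between 109492000 and 109496000, 7 entered, with at most 177 reads summed over CpGs in any library. Chd8+/- replicate 1 had no reads that counted. The 7 CpGs formed 2 windows of different level. In that at 109492501, with 4 CpGs, WT samples stood at 97.2%, 97.0% and 100%, and Chd8+/- replicates 2 and 3 at 90% and 98.3%. In that at 109494501, with 3 CpGs, the values were 60.8%, 69.6% and 61.4% in WT and 76.9% and 46.7% in Chd8+/-. WT replicate 1 had no reads that counted at its CpG at 109494771. Within the same control region, then, a nearly fully methylated edge and a window of intermediate mean level lay under 2 kb apart, in both genotypes. The 3 CpGs of the latter differed, with means of 41.1%, 83.5% and 69.2% over the samples read. Chd8+/- replicate 2 read 45.5%, 92.9% and 92.3% at them and Chd8+/- replicate 3 read 0, 100% and 40%.

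Over the 7 CpGs the control region averaged 83.7% ± 2.57 in WT (SD, n = 3) and 80.3% ± 5.79 in Chd8+/- (SD, n = 2). WT replicate 1 lacked the CpG at 109494771 and WT replicate 3 that at 109492662, so these averages cover partly different CpGs. At −3.41 points, the gap was within the spread (two-sided exact permutation p = 0.5). The covered window before it, at 109491501, read 66.4% ± 3.87 in WT against 68.5% ± 12.3 in Chd8+/- (SD, n = 3).

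Only 1 near-50% stretch was found, defined as at least 2 covered windows in a row within 35% to 65%. It joined the control region window at 109494501 to the windows at 109505501 and 109506001 before Meg3, a span of 12000 bp in which no kept CpG lay between 109494795 and 109505936. The 9 CpGs of the stretch stood at 37.2%, 54.9% and 39.0% in WT and 25.0%, 62.5% and 55.4% in Chd8+/-. Replicates 2 and 3 of Chd8+/- lay above the WT samples and replicate 1 below them, though replicate 1 had no value in the control region window. Chd8+/- replicate 2 lacked the CpGs at 109505936 and 109506157, WT replicate 1 that at 109494771 and WT replicate 3 that at 109505936. The order of the samples thus mixes different sets of CpGs. The means were 43.7% ± 9.73 and 47.6% ± 19.9 (SD, n = 3), and the exact permutation p was 0.8. The CpGs of the stretch read in all 6 samples all lay in the window at 109506001. Over these the means were 31.5% and 50.4% (18.9 points, exact permutation p = 0.2). At a minimum of 20 reads the gap was 9.47 points (exact permutation p = 0.3). On its left the stretch was bounded by the window at 109492501 (96.5% over the samples) and on its right by that at 109506501 (25.4%), which holds the Meg3 start site.

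The approach to the Meg3 start site held a run of intermediate CpGs. The 8 CpGs from −943 to −352 bp relative to the start had mean levels of 31.8% to 63.0%, with a median of 39.1%. By sample they averaged 35.7%, 49.5% and 24.8% in WT and 35.4%, 46.4% and 59.5% in Chd8+/-. WT replicate 3 lacked the CpGs at 109505936 and 109506520, and Chd8+/- replicate 2 those at 109505936 and 109506157. WT replicate 3 was the lowest and Chd8+/- replicate 3 the highest, and the groups overlapped (36.7% ± 12.4 against 47.1% ± 12.1, SD, n = 3, exact permutation p = 0.5).

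The levels of single CpGs there moved in small groups that differed between libraries. At 109506157, 109506179 and 109506202, WT replicate 2 read 53.7%, 71.4% and 81.7%, but at 109506456 and 109506474, in the same window, it read 6.82% and 25.4%. Chd8+/- replicate 2 read 68.0% at each of the latter 2 sites, against 33.3% and 37.5% at 109506179 and 109506202. CpGs of 1 fragment share their reads, so such groups are not independent measurements.

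In the 150 bp before the start the level dropped in each library. The 5 promoter CpGs, from −146 to −54 bp, averaged 0.794%, 10.6% and 11.2% in WT and 10.3%, 11.1% and 5.03% in Chd8+/-. Summed over these CpGs, a library had up to 287 reads. In all 6 samples the 5 CpGs were lower than the 8 CpGs upstream. The boundary between the sets was chosen after the levels were seen, so this is given without a test. Chd8+/- exceeded WT by 1.28 points on average (7.54% ± 5.85 and 8.83% ± 3.31, SD, n = 3, exact permutation p = 0.9). WT replicate 1 and Chd8+/- replicate 2 lacked 3 of the 5 sites. Over the 2 sites read in all 6 samples, at 109506733 and 109506776, the means were 7.20% and 16.5%.

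The CpG inside TGACGTCA, at 109506825 (−54 bp), was read in 4 libraries. It stood at 14.3% in WT replicate 2 and at 0 in WT replicate 3 and Chd8+/- replicates 1 and 3, from 18 to 44 reads. The CpG at 109506819 beside it was at 0 in the same 4 libraries.

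After the start, 3 CpGs between 74 and 319 bp averaged 38.8% ± 24.7 in WT against 47.5% ± 30.6 in Chd8+/- (SD, n = 3). Individual libraries ran from 15% to 75.9% there, at 10 to 45 reads per CpG. WT replicate 2 was read only at 109507198, while Chd8+/- replicate 2 lacked 109506958 and Chd8+/- replicate 3 lacked 109507198. The averages of the libraries therefore do not cover the same CpGs.

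**Figure D2:**
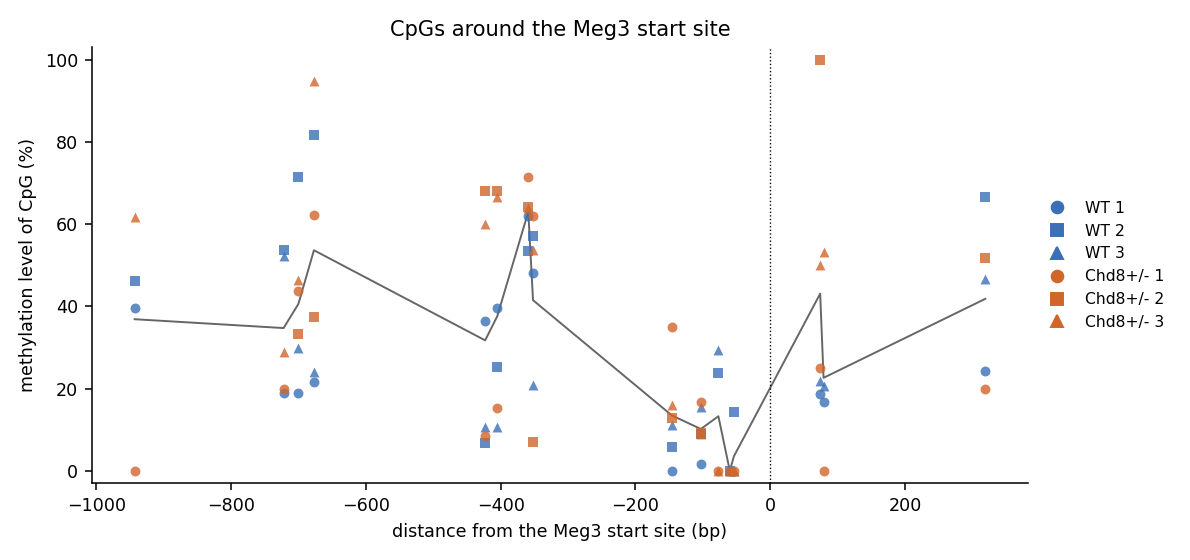
Methylation level (%) of each CpG around the Meg3 start site in each sample against its distance from the start (bp); blue is WT, orange Chd8+/-, and the grey line joins the means over the samples read at each CpG. The 5 CpGs just before the start have means of at most 13.5%, below the 8 CpGs upstream, whose means run from 31.8% to 63.0%.

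Inside the Meg3 interval, 109507000 to 109538000, methylated and sparsely methylated windows alternated. The 25 CpGs averaged 45.8% ± 3.45 in WT against 48.2% ± 2.37 in Chd8+/- (SD, n = 3). The window at 109510501, with 4 CpGs, stood at 90% ± 6.75 and 91.8% ± 2.11 (SD, n = 3). The window at 109512001, with 3 CpGs, stood at 2.98% ± 2.27 and 4.74% ± 2.13, and that at 109516001, again with 3 CpGs, at 93.4% ± 6.19 and 92.7% ± 0.762 (SD, n = 3). High and low windows thus lay under 5 kb apart, in the same order in both genotypes.

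The 4 near-50% windows of the Meg3 interval held a single CpG each. At the CpG of the window from 109515501 to 109516000, WT samples stood at 52.4%, 38.9% and 41.1% and Chd8+/- samples at 100%, 66.7% and 59.2%. All Chd8+/- samples were higher there, from 15 to 56 reads. In the window at 109513501 the samples stood at 59.6%, 70% and 96.8% in WT and 22.2%, 50% and 68.2% in Chd8+/-, with the Chd8+/- mean lower and the groups overlapping. The windows at 109507001 and 109522001 differed by −10.0 and −0.705 points, with overlapping groups and 1 sample without reads in each.

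The genotype difference of the whole Meg3 interval was 2.48 points (standard error 2.42, exact permutation p = 0.4). Its sign depended on how CpGs were counted, with −3.31 points when CpGs were weighted by reads and −3.82 points at a minimum of 20 reads. With Chd8+/- replicate 2 left out, the difference was close to none (−0.0281 points).

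The Dlk1 side, from 109410000 to the control region, had unmethylated windows toward its outer end and a mostly methylated remainder. None of its 23 windows was near 50%. The 5 windows at 109412001, 109415501, 109416001, 109419001 and 109419501, with 26 CpGs, averaged 0 to 4.27% over the samples. Between those at 109412001 and 109415501, the windows at 109414001 and 109414501 averaged 90.3% and 68.2%. The window at 109416001 held 10 CpGs, the most of any window in the domain, with 497 to 633 reads per library summed over CpGs. It stood at 1.38%, 3.04% and 2.75% in WT and 2.58%, 0 and 1.5% in Chd8+/-. Of the other 18 windows, 17 averaged above 65% and 1 at 23.8%. Whether the unmethylated windows cover the Dlk1 promoter was not settled here.

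Over its 74 CpGs the Dlk1 side averaged 50.8% ± 1.92 in WT against 53.2% ± 1.91 in Chd8+/- (SD, n = 3). This was a gap of 2.39 points (exact permutation p = 0.2). The groups did not overlap under 3 other countings, with 2.74 points at a minimum of 20 reads, 1.85 points over the CpGs read in all 6 samples and 2.76 points with CpGs weighted by reads (exact permutation p = 0.1 in each). Between the replicate 3 libraries the gap was −1.65 points. The window at 109461001, with 4 CpGs, read 64.0%, 71.5% and 76.7% in WT and 89.0%, 90.7% and 83.9% in Chd8+/-. The groups did not overlap there, with 65 to 270 reads per library summed over CpGs, and the edgeR p was 0.0982 (adjusted p = 1.00). The window at 109474501, with 3 CpGs, read 19.5%, 15.5% and 17.6% in WT and 25.5%, 23.1% and 41.7% in Chd8+/-.

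The Dio3 promoter was at or near 0 in each library. Its 13 CpGs, from −187 to −50 bp relative to the start, had 0 methylated reads in WT replicates 1, 2 and 3, of 293, 594 and 321 reads summed over CpGs, and in Chd8+/- replicates 1 and 2, of 223 and 221 reads. Chd8+/- replicate 3 had 1 methylated read of 465 (0.215%). By 3 counts of the total, the zeros would allow levels of up to 0.505% to 1.36% if each count were a separate read. CpGs of 1 fragment share their reads, so the actual limits are higher, and they cover counting error only. The 12 CpGs from −1724 to −1075 bp averaged 3.08% ± 1.77 in WT against 5.27% ± 5.56 in Chd8+/- (SD, n = 3). From −4058 to −3875 bp, 6 CpGs stood at 84.7% ± 8.0 and 83.8% ± 12.8 (SD, n = 3), so the methylation level changed from high to low over less than 4 kb in both genotypes.

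The Dio3 interval held 1 near-50% window, a single CpG in the window at 110235501 that read 62.5%, 46.2% and 70% in WT and 9.52% and 100% in Chd8+/- replicates 1 and 3, from 13 to 21 reads. Averaged over its 32 CpGs the Dio3 interval gave 20.2% ± 2.97 in WT against 14.5% ± 4.05 in Chd8+/- (SD, n = 3, exact permutation p = 0.2). The gap of −5.72 points turned to 1.04 points over the 18 CpGs read in all 6 samples (1.52% in WT and 2.56% in Chd8+/-), to 4.09 points at a minimum of 20 reads and to 0.567 points without Chd8+/- replicate 3. The direction of this difference therefore depended on which CpGs entered.

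Downstream of Meg3, where the cluster continues with Rtl1, Rian and Mirg, most windows were methylated. Of 35 windows, 27 averaged above 65%, 3 near 50%, 3 at 10% to 35% and 2 under 10%. Those under 10% lay at 109715001 and 109716001, the latter with 7 CpGs at 1.45% ± 0.290 in WT against 2.89% ± 2.74 in Chd8+/- (SD, n = 3). Its 89 CpGs averaged 70.6%, 72.5% and 68.2% in WT and 73.0%, 73.2% and 74.5% in Chd8+/-, so each Chd8+/- sample was above each WT sample. The difference was 3.13 points (standard error 1.34), and the two-sided exact permutation p was 0.1, the smallest that 3 samples against 3 allow. Adjusted by Benjamini-Hochberg over the 6 intervals it was 0.4. At a minimum of 20 reads and with CpGs weighted by reads the groups overlapped (4.56 points, exact permutation p = 0.4, and 2.57 points, p = 0.2). Over the CpGs read in all 6 samples they did not (4.83 points, exact permutation p = 0.1). Without Chd8+/- replicate 3 the difference was 2.87 points. Among the 4 libraries with the lower chromosome X share it was 1.53 points, and between the replicate 3 libraries 6.33 points.

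**Figure D3:**
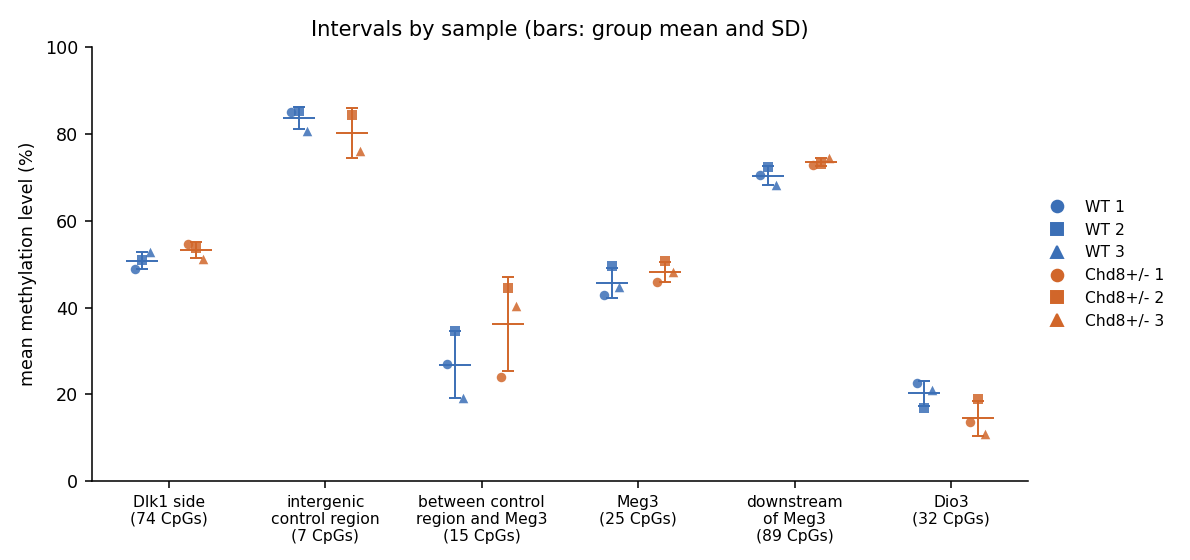
Mean methylation level (%) of the 6 intervals of the domain in each sample (symbols), with the group mean and SD as bars; the intergenic control region has no value for Chd8+/- replicate 1. The groups overlap in all intervals but that downstream of Meg3, where WT samples reach 72.5% and Chd8+/- samples start at 73.0%.

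Downstream of Meg3, the 5 covered windows from 109574501 to 109581001 formed a group of lower level between methylated neighbours, with means of 18.2% to 39.1%. The window at 109574501, with 7 CpGs, had the smallest edgeR p of the domain. It stood at 14%, 0 and 14.3% in WT and 19.6%, 44.1% and 59.4% in Chd8+/-. Summed over CpGs it had 131 to 285 reads per library, with 14 to 51 reads at a CpG where read. All Chd8+/- samples were higher, the closest pair being WT replicate 3 and Chd8+/- replicate 1. The means were 9.42% ± 8.16 and 41.0% ± 20.1 (SD, n = 3), 31.6 points apart, with an edgeR p of 0.0497 and an adjusted p of 1.00 over 102748 windows. By logistic regression its unadjusted p was 0.102. Leaving out single samples gave differences of 22.4 points (without Chd8+/- replicate 3) to 48.9 points (without WT replicate 3). Without WT replicate 3, the CpGs at which WT replicate 2 had no reads that counted no longer met the rule. The upper value thus comes from fewer CpGs as well as fewer samples. No window of the domain was under an unadjusted 0.05 without WT replicate 1 (lowest edgeR p 0.0511), Chd8+/- replicate 2 (0.105) or Chd8+/- replicate 3 (0.149).

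The genotype means differed by 37.1 to 54.3 points at the first 4 of its 7 CpGs and by 6.07 to 13.9 points at the last 3. The first 4 lie between 109574505 and 109574515. CpGs of 1 fragment share their reads, so these 4 are not independent measurements. At the CpG at 109574510, with the smallest p of any CpG higher in Chd8+/-, the samples stood at 11.8%, 0 and 8.33% in WT and 31.0%, 51.9% and 100% in Chd8+/-, from 24 to 51 reads. At the last CpG of the window, 109574635, the samples read 3.57% and 0 in WT replicates 1 and 3 and 16.7%, 6.90% and 0 in Chd8+/-. WT replicate 2 had no reads that counted at the last 3 CpGs. Over the first 4 CpGs, those read in all 6 samples, the means were 11.7% in WT and 56.6% in Chd8+/-.

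**Figure D4:**
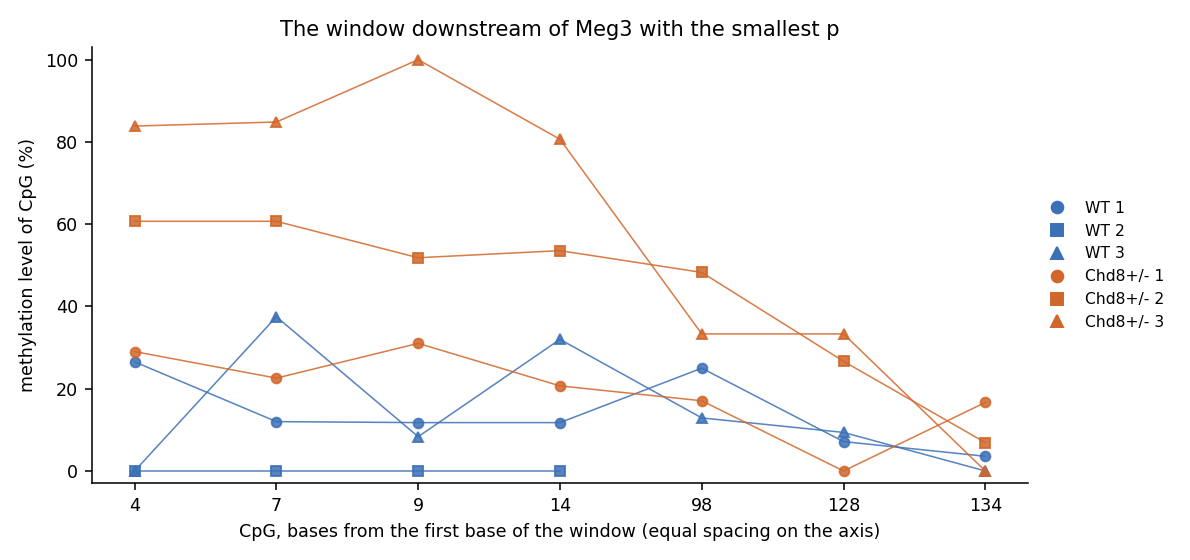
Methylation level (%) of the 7 CpGs of the window starting at 109574501, by sample; the axis gives each CpG's distance in bases from the first base of the window, at equal spacing. Chd8+/- replicates 2 and 3 lie above 50% at the first 4 CpGs and Chd8+/- replicate 1 lies between 20.7% and 31.0% there, and all samples are at or below 16.7% at the last CpG.

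Neighbours of this window were measured at few CpGs. The single CpG of the window at 109577001, near 50% over the samples, read 40.4%, 16.7% and 19.1% in WT and 54.2%, 44.4% and 60% in Chd8+/-, from 15 to 47 reads. That of the window at 109580501 read 0, 15.1% and 12.2% in WT and 22.7%, 25.0% and 34.0% in Chd8+/-. The 3 CpGs of the near-50% window at 109581001 stood at 39.0%, 36.7% and 37.8% in WT and 44.6%, 29.7% and 30.3% in Chd8+/-, with overlapping groups. In the window at 109581501 the 2 CpGs stood at 86.0%, 85.9% and 62.5% in WT and 94.5%, 88.3% and 89.7% in Chd8+/-. The third near-50% window of this interval, at 109553001, was a single CpG with 61.6% ± 17.0 in WT against 66.7% ± 47.1 in Chd8+/- (SD, n = 3 and 2).

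Across all 11 near-50% windows, with 19 CpGs, the samples averaged 42.8%, 50% and 44.6% in WT and 35.6%, 55.3% and 53.6% in Chd8+/-. Chd8+/- replicate 1 was the lowest and the other Chd8+/- samples the highest. Chd8+/- was 2.39 points higher (45.8% ± 3.73 and 48.2% ± 10.9, SD, n = 3), within the spread (exact permutation p = 0.8). Over their CpGs read in all 6 samples the means were 38.5% in WT and 48.1% in Chd8+/-, 9.65 points apart without overlap (exact permutation p = 0.1), and with limits of 40% and 60% the gap was 10.8 points (exact permutation p = 0.2). A single CpG carried 8 of these windows, and in those single samples ran from 0 to 100%. Windows just inside the limits of 35% and 65% stood at 36.4% (109581001), 36.9% (109505501), 63.1% (109494501) and 63.6% (109553001), and those just outside at 33.5% (109577501), 33.8% (109521501) and 67.5% (109491501).

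**Figure D5:**
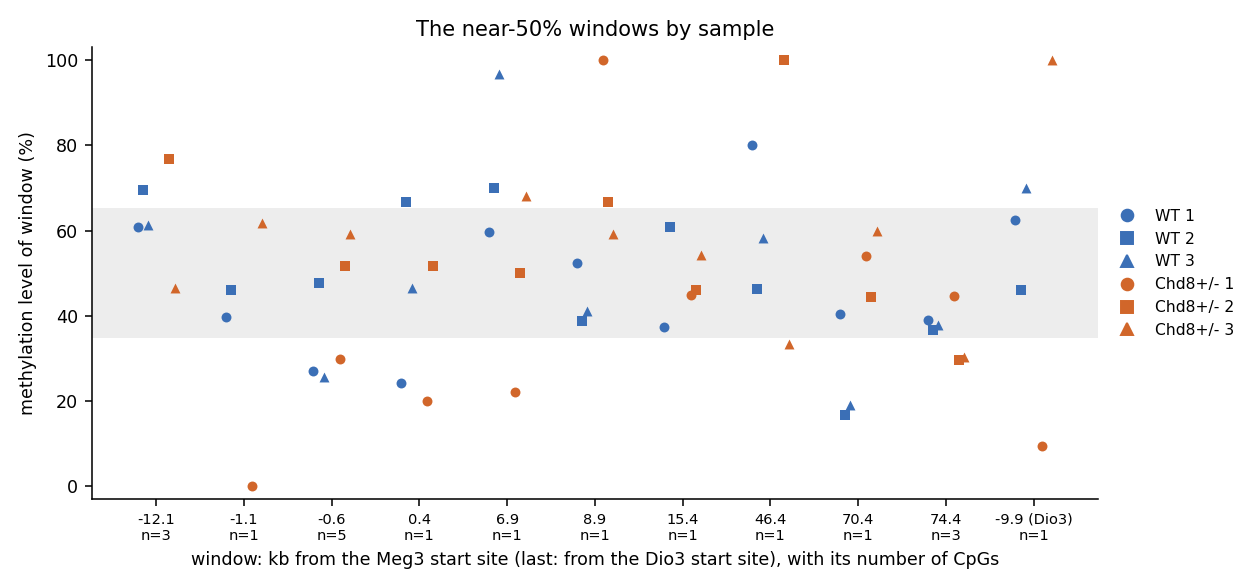
Methylation level (%) of the 11 near-50% windows in each sample, ordered by position and labelled with the distance of the window's centre from the Meg3 start site (kb; the last from the Dio3 start site) and the number of CpGs; the grey band is 35% to 65%. Single samples of windows with 1 CpG run from 0 to 100%, and the window with 5 CpGs runs from 25.6% to 59.3%.

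The spread between samples was wide at intermediate levels in the domain and in the genome alike. In windows read in all 6 samples, the median SD within groups was 13.9 points for the domain's 5 such windows near 50%, beside 13.8 points for 25966 autosomal windows. It was 2.40 points for the 12 windows under 10%, beside 0.984, and 5.0 points for the 17 windows at 90% or more, beside 5.06. Both strands of a CpG, read in 1 library, also differed at intermediate levels. For pairs averaging 35% to 65%, the median difference between strands was 26.7 points in the domain (22 pairs) and 24.2 points on chromosome 12 (2195 pairs).

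No window or CpG of the domain passed the genome-wide test for a genotype difference. By edgeR, 0 of 38 windows and 0 of 197 CpGs had an adjusted p under 0.05, as did 0% of 102748 windows and 0% of 609673 CpGs over the autosomes. At an unadjusted p under 0.05, 1 window was higher in Chd8+/- (2.63%, beside 1.91% of all windows) and 0 were lower (beside 1.60%). Of the CpGs, 4 were higher (2.03%, beside 1.75% of all) and 6 lower (3.05%, beside 1.27%). Logistic regression with overdispersion also called 0 windows and 0 CpGs, with 1 window (2.63%, beside 4.82% of all) and 15 CpGs (7.61%, beside 4.93% of all) of the domain at an unadjusted p under 0.05. The window was another one than by edgeR, that at 109461001 with a logistic p of 0.00874.

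The CpG and window with the smallest p for lower methylation in Chd8+/- differed by few points. The CpG at 109416145, in an unmethylated window of the Dlk1 side, read 6.60%, 0 and 5.62% in WT and 0 in all Chd8+/- samples, from 89 to 119 reads. Its edgeR p was 0.00749, with an adjusted p of 1.00. The window with the smallest p in this direction, at 109415501, read 7.14% in WT replicate 2 and 0 in the other libraries. Its edgeR p was 0.191, with an adjusted p of 1.00.

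Windows whose groups did not overlap were mostly higher in Chd8+/-. Of 67 windows read in all 6 samples, 10 (14.9%) had all Chd8+/- samples above all WT samples, beside 5.19% of 208872 autosomal windows, and 0 had them below, beside 3.59%. Among windows with at least 3 CpGs it was 4 of 37 (10.8%) higher, beside 4.96%, and 0 lower, beside 3.83%. Of 152 CpGs, 15 (9.87%) were higher without overlap, beside 3.48%, and 4 (2.63%) lower, beside 2.32%. Without Chd8+/- replicate 3 the windows were 12 higher (17.9%, beside 9.59%) and 4 lower (5.97%, beside 8.61%), and the CpGs 18 higher (11.8%, beside 6.34%) and 8 lower (5.26%, beside 5.64%). Nearby windows and CpGs share libraries and partly reads, and no test was made of these counts.

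The mean over the domain was higher in Chd8+/- by an amount that varied with the CpGs averaged. Over all 242 CpGs it was 52.9% ± 0.744 in WT against 54.8% ± 2.13 in Chd8+/- (SD, n = 3), 1.89 points apart, with overlapping groups and an exact permutation p of 0.2. Over the 152 CpGs read in all 6 samples the libraries stood at 49.2%, 50.5% and 49.0% in WT and 51.8%, 52.6% and 54.3% in Chd8+/-, a difference of 3.33 points without overlap (exact permutation p = 0.1, the smallest possible). Without Chd8+/- replicate 3 it was 2.63 points over the 152 CpGs and 2.19 points over the 242 CpGs. The autosomes as a whole differed by 1.13 points by the rule used for the 242 CpGs, and by 0.390 points without Chd8+/- replicate 3. Between the replicate 3 libraries the autosomes differed by 2.3 points. The domain differed there by 1.52 points over the 242 CpGs and by 5.26 points over the 152. No autosomal mean was computed over CpGs read in all 6 samples, so the differences over the 152 CpGs have no matching autosomal value.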

How the data were processed

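Per the labels' protocols, DNA was cut with MspI, size-selected and bisulfite-converted. Listed in the submitters' processing notes are SAMtools 1.9, Bismark 0.20.0, Trim Galore 0.4.4 and the build mm39; their settings and any removal of duplicates are not given in the sources used here. Per the file headers, the deposited tables give coverage, a count of reads per cytosine (10 or more), and the percent read as C or T. Coverage times percent was rounded to methylated reads, whole within 0.02 for 99.96% to 99.97% of cytosines in each library.

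Strands of a CpG were summed. A sample's level is the unweighted mean over its CpGs, compared by exact two-sided permutation tests. Counts of autosomal CpGs and of 500-bp windows with at least 3 CpGs were tested with edgeR 4.0.16 (quasi-likelihood, a coverage term per sample) in R 4.3.3, leaving out features at 0% or 100% throughout, with Benjamini-Hochberg adjustment over all features; the code was tested on simulated data. Other steps used Python 3.11.15.

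The domain and its intervals were chosen with earlier results of these data known. Windows were named by rule (those near 50%, their neighbours, the window with most CpGs where an interval had none, and the smallest p in each direction); others were named after their values were seen, as were the segments around the start sites. Peg3, Snrpn, Mest and Begain promoters were not analysed here.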

Additional observations from a re-analysis of the deposited data

How the results depend on the processing

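The alternatives within libraries of similar chromosome X share and without Chd8+/- replicate 3 for counts were chosen after seeing the data. Signs turned for the Meg3 interval (−3.82 points at 20 reads, −3.31 weighted by reads), for Dio3 (4.09 points at 20 reads, 1.04 over CpGs in all 6 samples), for the Dlk1 side (−1.65 points between the replicate 3 libraries), and, within the 4 libraries of lower chromosome X share, for the near-50% stretch (−2.29 points) and all near-50% windows (−0.918 points); the cause was not tested. Over left-out samples the differences ranged from −0.0281 to 3.59 points for Meg3, −7.17 to 0.567 for Dio3, 1.94 to 3.46 for the Dlk1 side, −8.98 to −1.43 for the control region, 5.34 to 19.7 between it and Meg3, 2.87 to 4.67 downstream of Meg3, −1.11 to 16 for the near-50% stretch and 0.542 to 8.28 for all near-50% windows. The count of near-50% windows, 11, ranged from 6 to 14 over left-out samples (6 without Chd8+/- replicate 3). It was 16 at 30% to 70%, 11 of 67 with longer windows, 5 at 40% to 60%, 6 at 20 reads and 6 over CpGs in all 6 samples, the latter 2 with fewer windows (62 and 65 of 84). By edgeR, 0 windows passed in any fit, and 0 to 1 CpGs over left-out samples (1 without Chd8+/- replicate 1 and 1 without replicate 3), with lowest adjusted p in the domain of 0.983 for windows (without Chd8+/- replicate 1) and 1.00 for CpGs.

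With the replicate block, edgeR called 0 windows and 0 CpGs, and the interval downstream of Meg3 gave p = 0.25 in the exact test over pairs, which is as low as 3 pairs can give. Deviations from the group means correlated at −0.00196, 0.00235 and −0.00333 between samples of the same number over 94527 windows, so the numbers were not taken as pairs. The control region had no value at 20 reads or over CpGs in all 6 samples, none without Chd8+/- replicate 2 or 3, nor under the block.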
